A study of Mus musculus with 28 samples.

Results

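Mitochondrial ribosomal proteins build the ribosome that works inside mitochondria, and their genes lie in the nucleus under the symbols Mrpl, for the large subunit, and Mrps, for the small subunit. The genes described here are those for which the array's annotation names a single gene whose symbol begins with Mrpl or Mrps followed by a digit. There were 74 such genes among the 12393 genes with a probe set of their own, 47 of them Mrpl and 27 Mrps, and they were measured by 127 of the array's 22690 probe sets. Each gene was represented by its brightest probe set in each experiment. All 74 genes passed the filter on low values in both experiments, and none lay at the floor on any of the 28 arrays, so no gene was lost to low signal.

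RNA of mouse bone marrow cells, from about 10000 sorted cells per sample, was amplified and hybridised to 1 Affymetrix array per sample. The arrays form a transduced and a sorted experiment, whose RNA was amplified on different days according to the series' design text, so levels were compared only within an experiment. The transduced experiment compared granulocyte-macrophage progenitors (GMP) made to express green fluorescent protein, GFP (3 arrays), with GMP expressing MLL-AF9 (3 arrays), a fusion of a histone methyltransferase gene with a partner gene that is found in acute myeloid leukaemia. The sorted experiment held 5 populations, all negative for lineage markers (Lin-) and positive for Kit. HSC, the fraction enriched for haematopoietic stem cells (5 arrays), was sorted as sca+. The other populations were sca-: common myeloid progenitors, CMP (4 arrays, labelled FCR+ and CD34low), GMP (4 arrays, FCR+ and CD34high), megakaryocyte-erythroid progenitors, MEP (3 arrays, FCR- and CD34-), and L-GMP (6 arrays, FCR+ and CD34+), leukaemic cells sorted by a similar set of markers to GMP. CMP are usually sorted as low for the Fc receptor and positive for CD34, so the labelled gate is not the usual one, and CMP here means the samples so labelled. The labels used here give no strain, age or time after transduction, do not say how the leukaemias were started, and do not say that replicates came from separate animals. The p-values therefore rest on a spread between samples that may only be technical, and the number of arrays limits their precision.

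The mitochondrial ribosome translates the few messages of the mitochondrial genome, all of which encode subunits of the respiratory chain and of the ATP synthase. Its RNAs come from the mitochondrial genome, while its proteins are made in the cytoplasm and imported, so building it needs output from both genomes. Stem cells of the marrow are known for a low rate of protein synthesis and for relying less on respiration than the progenitors they give rise to.

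The start regions of some genes that the results turn on are shown first, with the motifs of known regulators of this gene family. The RefSeq table of promoters, on build GRCm38.p6, held 71 promoters for 65 of the 74 genes, each with 250 bases before and 50 bases after the transcription start. The motifs named here were searched on both strands. CCGGAAG, the core bound by ETS factors such as GABP, was found in 33.8% of the 71 promoters and in 8.86% of all 32851 promoters of the same length. AAGATGG, a core of YY1 sites, was found in 16.9% against 6.34% of all promoters, and CATGCGC, a core of NRF1 sites, in 11.3% against 3.91%. CACGTG, the E box bound by MYC among others, was found in 9.86% against 7.15%. These were 7 promoters of 5 of the 65 genes, so some genes are counted more than once in that share. At least 1 of these motifs was present in 56.3% of the 71 promoters and in 22.9% of all promoters. The 8 sequences below cover the last 150 bases before the start of some genes that the results turn on and that hold a match there. Mrpl20 (E box), Mrpl39 (NRF1 core) and Mrps11 (YY1 core) also held a match there and are not printed. Genes with several promoters, or on some chromosomes, were left out of the choice. Each is written 5′ to 3′ on the strand of its gene, with the matched letters in capitals. In Mrpl9, 2 NRF1 core matches on opposite strands overlap and are counted as 1 promoter.
Mrpl52: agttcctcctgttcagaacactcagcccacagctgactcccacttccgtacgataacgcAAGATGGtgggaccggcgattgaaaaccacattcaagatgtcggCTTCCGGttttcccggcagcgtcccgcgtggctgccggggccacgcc
Mrpl33: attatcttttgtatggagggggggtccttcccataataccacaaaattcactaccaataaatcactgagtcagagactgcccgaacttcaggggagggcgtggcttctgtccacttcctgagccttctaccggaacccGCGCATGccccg
Mrpl36: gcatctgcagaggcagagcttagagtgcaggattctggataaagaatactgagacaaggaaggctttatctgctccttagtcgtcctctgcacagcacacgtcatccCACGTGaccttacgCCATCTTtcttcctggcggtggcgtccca
Mrpl51: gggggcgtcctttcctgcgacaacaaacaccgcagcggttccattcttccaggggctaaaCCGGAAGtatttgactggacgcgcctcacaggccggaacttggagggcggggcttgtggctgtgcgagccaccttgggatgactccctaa
Mrpl58: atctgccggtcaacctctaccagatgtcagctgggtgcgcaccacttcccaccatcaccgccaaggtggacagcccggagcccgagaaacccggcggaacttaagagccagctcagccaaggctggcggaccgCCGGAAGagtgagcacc
Mrpl9: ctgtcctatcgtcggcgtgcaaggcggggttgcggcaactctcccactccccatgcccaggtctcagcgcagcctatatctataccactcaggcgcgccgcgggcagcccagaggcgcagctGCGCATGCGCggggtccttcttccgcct
Mrps18a: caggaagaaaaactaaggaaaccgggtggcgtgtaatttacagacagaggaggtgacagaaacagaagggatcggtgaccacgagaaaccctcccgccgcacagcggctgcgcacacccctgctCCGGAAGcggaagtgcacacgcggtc
Mrps22: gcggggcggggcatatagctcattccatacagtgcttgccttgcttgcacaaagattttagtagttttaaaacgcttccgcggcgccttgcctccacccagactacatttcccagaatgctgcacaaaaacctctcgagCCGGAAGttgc

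The stretch of Mrpl52 is chr14:54426759-54426908, that of Mrpl33 chr5:31613801-31613950, that of Mrpl36 chr13:73330859-73331008 and that of Mrpl51 chr6:125192050-125192199, all on the plus strand. The stretch of Mrpl58 is chr11:115403602-115403751, that of Mrpl9 chr3:94443186-94443335 and that of Mrps18a chr17:46110854-46111003, also on the plus strand, and that of Mrps22 is chr9:98601680-98601829 on the minus strand. A match describes the letters only and is not evidence of a bound factor.

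Levels below are log2 of the scaled intensity, and a difference of 1 on that scale is a 2-fold change in intensity. A gene is said to have risen or fallen where limma's Benjamini-Hochberg adjusted p, over all genes tested in the experiment, was under 0.05. Intensities differ between probe sets for reasons other than abundance, so the level of a gene was never set against that of another. Because every array was scaled to a common level, a change in the total RNA of a cell is removed from these values. In such bulk samples, fewer cells expressing a gene and less RNA of it per cell cannot be told apart.

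Summed levels of marker lists describe the sorted populations, and no list was made for CMP. The summed level of the granulocyte-monocyte list (8 of 8 genes on the array) was 35243 to 40351 in GMP and 21353 to 30852 in L-GMP, against 4519 to 9121 in HSC and 1795 to 4814 in MEP. The erythroid list (6 of 8 genes) was highest in MEP, at 9091 to 14590, and its regulator Klf1 lay at the floor on all HSC, GMP and L-GMP arrays. The stem cell list (6 of 8 genes) was highest in HSC, at 5921 to 6454. Macrophage markers (6 of 6 genes) summed to 3135 to 4150 in L-GMP against 1580 to 1926 in GMP. Megakaryocyte markers (5 of 5 genes) summed to 3118 to 8543 in CMP and 3628 to 4042 in MEP, against 547 to 944 in L-GMP. The megakaryocyte list thus did not set MEP above CMP. Immediate early genes, which respond to handling of cells, were low on L-GMP arrays and on the replicate 1 arrays of CMP and GMP. Their mean log2 level over the list was 6.60 to 7.71 in L-GMP, 6.69 on CMP 1 and 6.55 on GMP 1. In HSC it was 8.03 on replicate 1, the lowest HSC array, and 9.77 to 11.00 on the others. The part of these differences in the results was not tested.

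Across the 5 sorted populations, the mitochondrial ribosomal protein genes were lowest in HSC and in L-GMP and highest in GMP and MEP. The median level of the 74 genes was 9.11 to 9.41 on the HSC arrays, 9.50 to 9.64 in CMP, 9.70 to 9.85 in GMP, 9.57 to 9.87 in MEP and 9.24 to 9.46 in L-GMP. The HSC arrays lay below every CMP, GMP and MEP array, as did the L-GMP arrays, while HSC and L-GMP overlapped. HSC held the lowest of the 5 group means for 41 genes and L-GMP for 30, against 2 for MEP, 1 for GMP and 0 for CMP. MEP held the highest mean for 33 genes and GMP for 31. Among the 4 normal populations alone, HSC was lowest for 64 of the 74 genes.

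**Figure D1:**
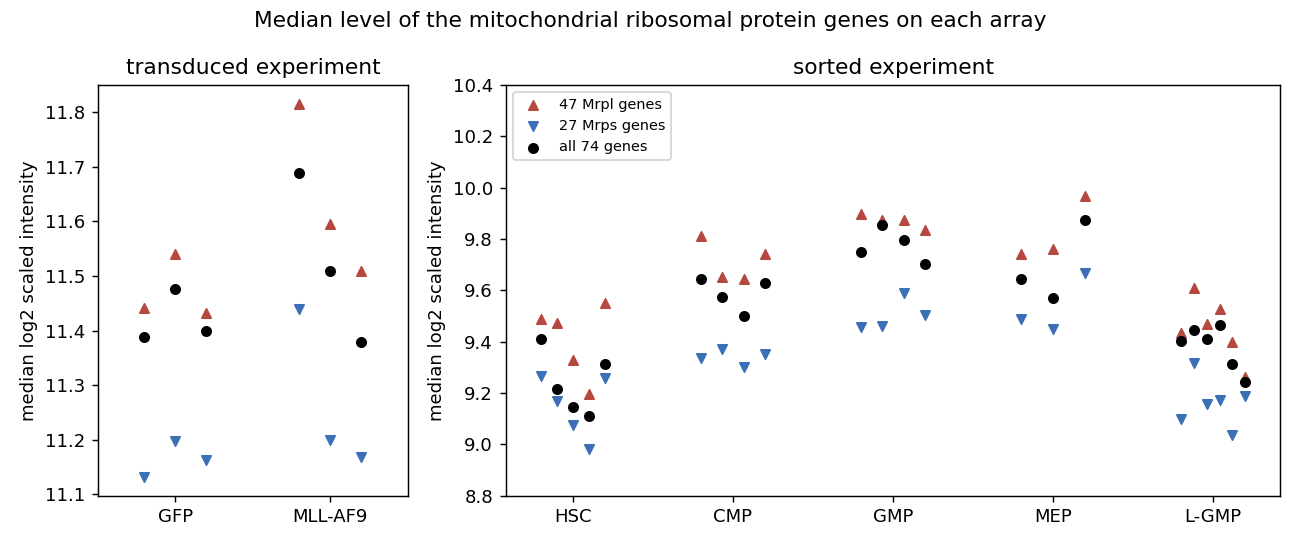
Median log2 scaled intensity of the 74 genes (black circles), the 47 Mrpl genes (red triangles) and the 27 Mrps genes (blue triangles) on each array, by group, with a separate axis for each experiment. In the sorted experiment the HSC and L-GMP arrays, at 9.11 to 9.46, lie below all CMP, GMP and MEP arrays, and MLL-AF9 replicate 1, at 11.69, is the highest array of the transduced experiment.

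A difference among the 5 populations passed limma's F test for 62 of the 74 genes, against 62.5% of all 8422 genes tested. By symbol it passed for 39 of 47 Mrpl and 23 of 27 Mrps genes. Grouped by ancestry, it passed for 36 of the 45 genes whose protein has a bacterial counterpart. It passed for 26 of the 29 remaining genes, a group defined only by the lack of a listed bacterial counterpart. The genes of the cytoplasmic ribosome, in contrast, passed for 8 of the 42 tested. The difference between these counts was not tested.

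**Figure D2:**
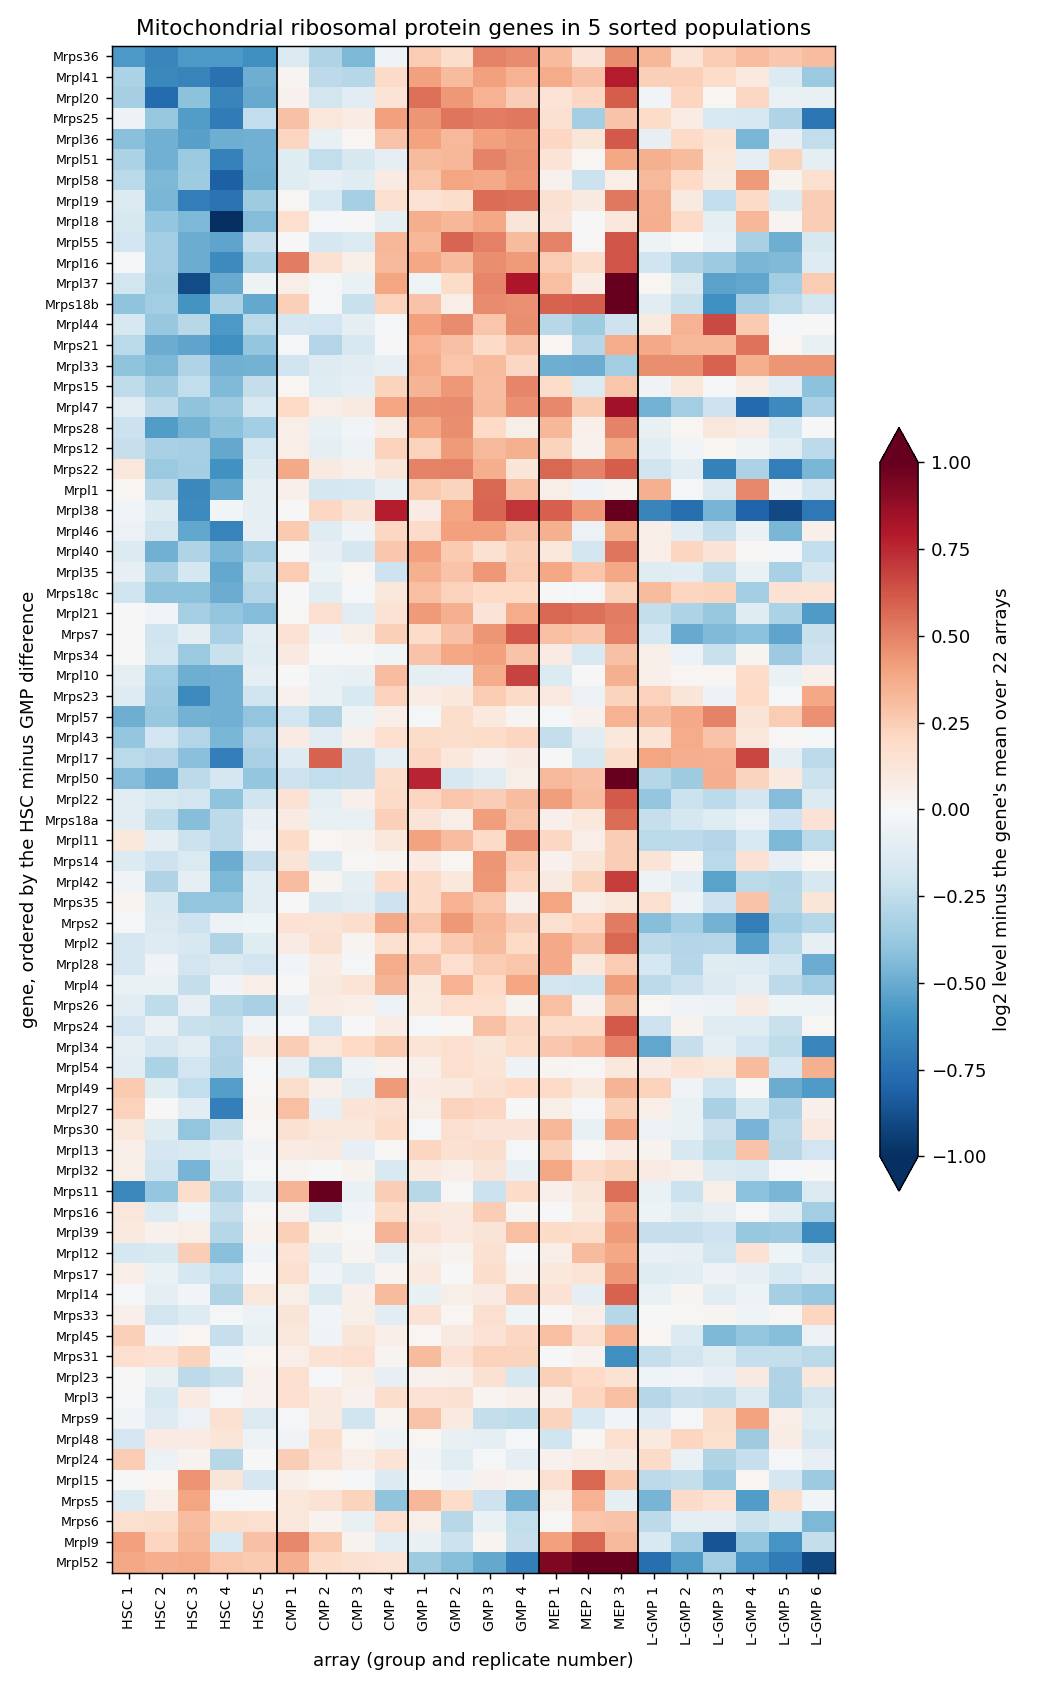
Log2 level of each of the 74 genes (rows) on each of the 22 sorted arrays (columns, by group and replicate number), as the difference from the gene's mean over the arrays; red is higher, blue lower, and colours saturate at 1 and -1. The HSC columns are blue for most genes, the GMP and MEP columns red, and Mrpl52, in the last row, runs the other way between HSC and GMP.

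The comparison of HSC with GMP asks how the genes differ between the stem cell fraction and the progenitors of granulocytes and macrophages. In HSC, 49 genes were lower and 2 were higher, so 51 of 74 passed, against 41.2% of all genes. The share of all genes that fell was 21.8% and the share that rose was 19.4%. The median difference of the 74 genes was -0.46, against 0.01 over all genes, and 67 of the 74 differences were below 0. Of the Mrpl genes 31 of 47 fell, and of the Mrps genes 18 of 27, with medians of -0.49 and -0.44. Of the cytoplasmic ribosomal protein genes 6 of 42 fell and 1 rose. For 51 genes the HSC and GMP arrays did not overlap, against 36.1% of all genes.

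The 6 largest declines in HSC were those of Mrps36, Mrpl41, Mrpl20, Mrps25, Mrpl36 and Mrpl51, between -0.87 and -0.95. Mrps36 keeps its ribosomal symbol, although its protein is now known as a subunit of the 2-oxoglutarate dehydrogenase complex of the citric acid cycle. Its levels were 7.28, 7.20, 7.28, 7.28 and 7.24 on the HSC arrays, 7.71, 7.55, 7.41 and 7.81 in CMP, and 8.11, 8.03, 8.35 and 8.33 in GMP. In MEP they were 8.17, 7.98 and 8.32, and in L-GMP they ran from 7.99 to 8.19 with a median of 8.14. The HSC arrays lay below all others, the CMP arrays came next, and GMP, MEP and L-GMP overlapped. Mrps36 was lower in HSC than in GMP by -0.95 ± 0.09 (SE, adjusted p = 6.51e-08), and the difference between L-GMP and GMP was -0.08 ± 0.09 (SE, adjusted p = 0.53).

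Mrpl41, a large subunit protein without a bacterial counterpart, was at 9.49, 9.16, 9.14, 9.06 and 9.32 in HSC against 10.22, 10.13, 10.22 and 10.15 in GMP, and at 10.18, 10.10 and 10.59 in MEP. The HSC arrays lay below both other groups with no overlap. It fell by 0.94 on the log2 scale in HSC against GMP (SE 0.14, adjusted p = 1.23e-05). Mrpl36, whose printed promoter holds an E box and a YY1 core, was at 9.03, 8.98, 8.91, 8.96 and 8.97 in HSC and at 9.86, 9.78, 9.86 and 9.89 in GMP, 2 groups that lay far apart. The difference was -0.87 ± 0.12 (SE, adjusted p = 6.1e-06).

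Mrpl52 and Mrps6 were the 2 genes that rose in HSC against GMP. Mrpl52, a large subunit protein without a bacterial counterpart, had the widest range of group means of all 74 genes, 1.76. Its levels were 11.61, 11.59, 11.60, 11.51 and 11.49 in HSC, 11.59, 11.42, 11.38 and 11.37 in CMP, and 10.87, 10.80, 10.72 and 10.54 in GMP. In MEP they were 12.16, 12.30 and 12.57, and in L-GMP 10.32 to 10.88 with a median of 10.59. MEP arrays were the highest, HSC and CMP overlapped in the middle, and GMP and L-GMP overlapped at the bottom. Mrpl52 was higher in HSC than in GMP by 0.83 ± 0.11 (SE, adjusted p = 2.38e-06), in CMP than in GMP by 0.71 ± 0.11 (adjusted p = 0.000101), and in MEP than in GMP by 1.61 ± 0.12 (adjusted p = 1.13e-09). Its 3 probe sets that passed the filter gave differences of the same sign in these contrasts, with values of 0.79 to 0.92 for HSC against GMP and of 1.61 to 2.04 for MEP against GMP. Mrps6, the counterpart of a bacterial small subunit protein, was at 8.29, 8.31, 8.44, 8.31 and 8.29 in HSC against 8.19, 7.85, 8.06 and 7.89 in GMP. Every HSC array lay above every GMP array, and the difference was 0.33 ± 0.09 (SE, adjusted p = 0.00733).

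The genes chosen for their known roles moved with the majority in this comparison where they passed the test. Mrps12, a protein of the decoding centre, fell by 0.65 on the log2 scale (SE 0.09, adjusted p = 8.85e-06). Its levels were 9.27, 9.17, 9.16, 8.98 and 9.30 in HSC and 9.72, 9.92, 9.82 and 9.85 in GMP, with no overlap. Mrpl58, a peptidyl-tRNA hydrolase built into the large subunit that can release stalled chains, was at 8.83, 8.65, 8.75, 8.28 and 8.61 in HSC and at 9.38, 9.50, 9.48 and 9.53 in GMP. Every HSC array lay below every GMP array, and the difference was -0.85 ± 0.11 (adjusted p = 1.72e-06). The 3 copies of the bacterial S18 protein family were also lower. Mrps18b differed by -0.75 ± 0.14 (adjusted p = 0.000158), Mrps18c by -0.59 ± 0.11 (adjusted p = 0.000156), and Mrps18a, whose protein sits in the large subunit, by -0.45 ± 0.12 (adjusted p = 0.00343). Mrpl12, a protein of the flexible stalk that recruits translation factors, had a difference of -0.17 ± 0.11 (adjusted p = 0.231). Mrps30, another protein with a small subunit symbol that sits in the large subunit, had a difference of -0.23 ± 0.12 (adjusted p = 0.138).

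Against MEP, the progenitors of red cells and platelets, HSC showed 46 lower and 0 higher genes of 74, against 32.9% of all genes in either direction, 15.5% lower and 17.4% higher. The median difference was -0.42, against -0.03 over all genes, and 43 genes had arrays that did not overlap, against 32.1% of all genes. Mrps18b differed most, at 8.35, 8.41, 8.16, 8.44 and 8.24 in HSC and at 9.35, 9.36 and 9.97 in MEP, 2 groups that did not overlap. The difference was -1.24 ± 0.15 (SE, adjusted p = 1.3e-06). Mrpl41 followed at -1.06 ± 0.15 (adjusted p = 1.05e-05), then Mrpl50 at -0.98, Mrpl38 at -0.95, Mrps36 at -0.90 and Mrpl37 at -0.88, and all of these fell. The call of Mrpl37 was lost without MEP replicate 3 (-0.59, adjusted p = 0.0913). Of the genes of known role, Mrps12 fell by 0.54 log2 units (adjusted p = 0.000266), and Mrpl12 differed by -0.36 ± 0.12 (adjusted p = 0.0223), a call that was lost without MEP replicate 3 (-0.30, adjusted p = 0.129), without MEP replicate 2 (-0.33, adjusted p = 0.075) and without HSC replicate 4 (-0.29, adjusted p = 0.0588). The count of 46 fell to 30 without MEP replicate 3, whose median level of 9.87 was the highest of all sorted arrays. With the deposited values not scaled further, all 8422 genes shifted by a median of 0.11, the 74 genes by -0.27, and 28 genes fell and 1 rose.

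HSC against CMP gave smaller differences of the same kind: 23 genes were lower and 0 higher, against 13.4% of all genes in either direction, 7.43% lower and 6.01% higher. The median difference was -0.27, against -0.00 over all genes, and 68 of the 74 differences were below 0. For 29 genes the arrays did not overlap, against 17.4% of all genes. Mrpl16, which contacts the transfer RNA on the large subunit, was at 9.02, 8.69, 8.55, 8.40 and 8.72 in HSC and at 9.55, 9.19, 9.10 and 9.37 in CMP, with no overlap. It fell by 0.62 on the log2 scale (SE 0.12, adjusted p = 0.00171). Mrpl36 fell by 0.59 log2 units (adjusted p = 0.00217) and Mrpl20 by 0.51 (adjusted p = 0.00488), both with no overlap. Mrps11 had the largest difference, -0.77 ± 0.24 (adjusted p = 0.0328), and rested on single arrays, since CMP replicate 2 stood at 9.55 and the other CMP arrays at 7.93 to 8.34. Without CMP replicate 2 the difference was -0.43 (adjusted p = 0.124), without HSC replicate 1 it was -0.67 (adjusted p = 0.071), without HSC replicate 2 it was -0.74 (adjusted p = 0.0711), and without HSC replicate 4 it was -0.76 (adjusted p = 0.061). The count of 23 fell to 9 without CMP replicate 4, to 13 without CMP replicate 1 or HSC replicate 4, to 14 without HSC replicate 3 and to 15 without HSC replicate 2. It was 12 without the 3 arrays of replicate 1 of HSC, CMP and GMP together, and 9 with the deposited values not scaled further. The direction was the same throughout, since no gene rose under any of these settings.

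Among the 3 committed progenitors the differences were fewer. CMP had 12 lower genes and 1 higher gene than GMP, 13 of 74, against 16.8% of all genes in either direction, 8.18% lower and 8.6% higher, with a median of -0.16 against 0.01 over all genes. The share called was close to that of all genes. For 21 genes the CMP and GMP arrays did not overlap, against 23.7% of all genes. Mrps36 fell by 0.58 log2 units (adjusted p = 0.000197), Mrpl51 by 0.56 (adjusted p = 0.0012, but 0.243 with the mean of its probe sets, at -0.27), Mrpl44 by 0.52 (adjusted p = 0.00477) and Mrpl58 by 0.43 (adjusted p = 0.00993). Mrpl44 is a member of the ribonuclease III family that lies on the large subunit. The count of 13 fell to 6 without CMP replicate 2, to 7 without CMP replicate 3, to 8 without GMP replicate 2 or GMP replicate 4, and to 7 without the 3 arrays of replicate 1.

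MEP had 4 higher and 4 lower genes than GMP, 8 of 74 against 27.5% of all genes (11.9% higher and 15.6% lower), with a median of 0.02 against 0.05 over all genes. For 17 genes the arrays did not overlap, against 32.5% of all genes. Mrpl52, described with its arrays in the comparison of HSC with GMP, was the largest riser. Mrpl33, the counterpart of a small bacterial protein of the large subunit, ran the other way. Its levels were 11.07, 11.03, 11.17, 10.99 and 11.01 in HSC, 11.27, 11.35, 11.37 and 11.40 in CMP, and 11.85, 11.76, 11.80 and 11.69 in GMP. In MEP they were 10.99, 10.98 and 11.13, and in L-GMP 11.84 to 12.07 with a median of 11.93. HSC and MEP overlapped at the bottom, CMP lay between, and GMP and L-GMP were the highest. Mrpl33 was lower in MEP than in GMP by -0.74 ± 0.08 (SE, adjusted p = 2.4e-07), and Mrpl44 by -0.68 ± 0.13 (adjusted p = 0.000447). Mrpl58 (-0.41, adjusted p = 0.0151), Mrpl9 (0.56, adjusted p = 0.0131), Mrps18b (0.49, adjusted p = 0.0243), Mrps31 (-0.42, adjusted p = 0.0105) and Mrps6 (0.33, adjusted p = 0.0268) passed with all arrays. Each of these 5 calls was lost without an MEP array: without MEP replicate 2, Mrpl58 was at -0.32 (adjusted p = 0.103), Mrpl9 at 0.49 (adjusted p = 0.0679) and Mrps6 at 0.28 (adjusted p = 0.11). Without MEP replicate 3, Mrps18b was at 0.28 (adjusted p = 0.195), Mrps31 at -0.21 (adjusted p = 0.0987) and Mrps6 at 0.28 (adjusted p = 0.0998). The calls were also lost without GMP replicate 2 for Mrps18b (0.40, adjusted p = 0.0839) and Mrps6 (0.28, adjusted p = 0.0853) and without GMP replicate 4 for Mrps6 (0.29, adjusted p = 0.0742). The count was 5 without MEP replicate 2. With the deposited values not scaled further 1 gene rose and 9 fell, and the share of all genes under that setting is not given here.

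Against CMP, MEP had 10 higher genes and 1 lower gene, 11 of 74 against 17% of all genes in either direction, 6.19% higher and 10.9% lower, with a median of 0.15 against 0.02 over all genes. For 20 genes the arrays did not overlap, against 25.3% of all genes. Mrpl52 rose by 0.90 ± 0.12 (SE, adjusted p = 1.07e-05), Mrps18b by 0.75 (adjusted p = 0.00155), Mrps36 by 0.54 (adjusted p = 0.000837) and Mrpl21 by 0.49 (adjusted p = 0.00634). Mrpl33 was the gene that fell, by 0.31 log2 units (adjusted p = 0.00748). The count was 5 without CMP replicate 2 or MEP replicate 3, 6 without CMP replicate 3, 17 without MEP replicate 2, and 7 with the deposited values not scaled further. Erythroid markers summed to 9091 to 14590 in MEP and 2236 to 4476 in CMP, and their part in these differences was not tested.

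**Figure D3:**
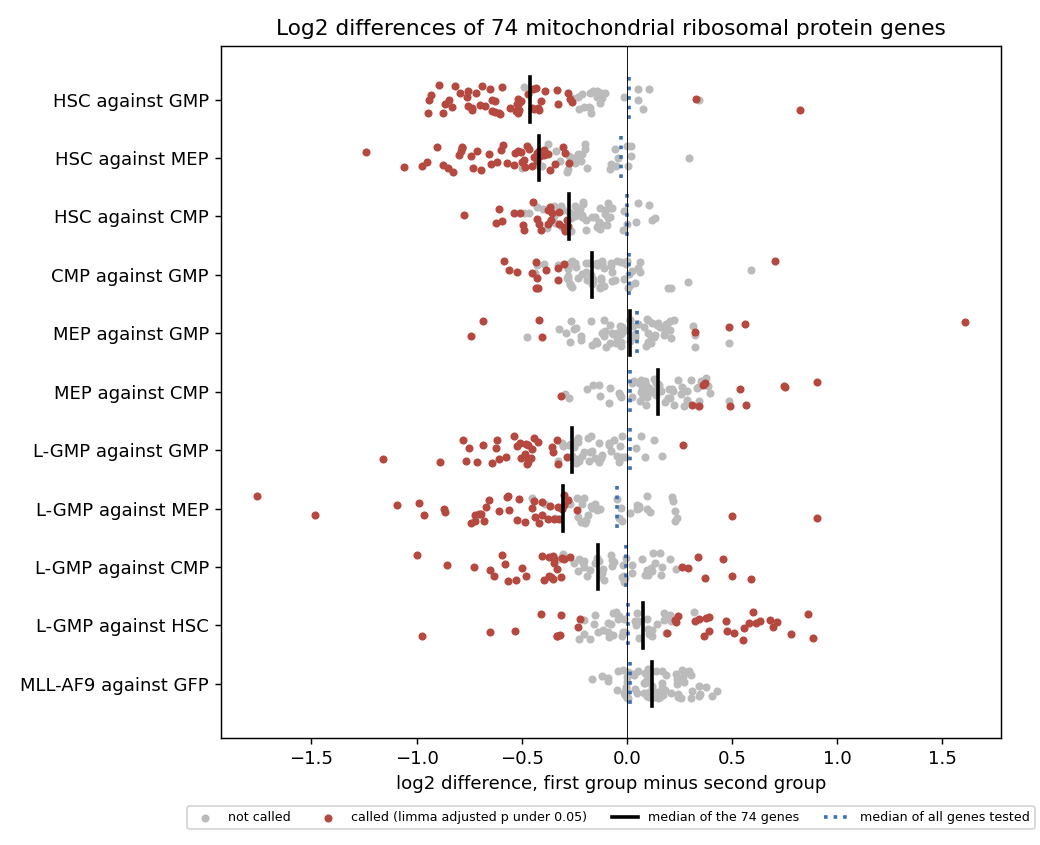
Log2 difference of each of the 74 genes (points) in 11 comparisons, first group minus second, with genes past an adjusted p of 0.05 in limma in red, the median of the 74 genes as a black bar and the median of all genes tested as a dotted blue bar. The black bar lies furthest from the blue bar for HSC against GMP (-0.46 against 0.01) and close to it for MEP against GMP (0.02 against 0.05), and no point is red for MLL-AF9 against GFP.

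L-GMP and normal GMP were sorted by a similar set of surface markers, and their comparison asks what differs in the leukaemic cells. In L-GMP, 31 of the 74 genes were lower and 1 was higher, 32 in all, against 33.5% of all genes in either direction, 18.3% lower and 15.2% higher. The median difference was -0.26 against 0.01 over all genes, and 68 of 74 differences were below 0. Of the Mrpl genes 20 of 47 fell and of the Mrps genes 11 of 27. Of the genes with a bacterial counterpart 20 of 45 fell and of those without one 11 of 29. For 30 genes the L-GMP and GMP arrays did not overlap, against 25.5% of all genes. Of the cytoplasmic ribosomal protein genes, 4 of 42 fell and 0 rose, with a median of -0.05. The count of 32 stayed between 29 and 36 with any single array left out and was 29 without the 3 arrays of replicate 1. The immediate early level of GMP replicate 1 was 6.55, below all L-GMP arrays, and that of the other GMP arrays was 8.36 to 8.82. Of the 6 macrophage markers, Adgre1 was at 10.48 ± 0.23 (SD, 6 arrays) in L-GMP and 7.36 ± 0.15 (SD, 4 arrays) in GMP and Cd68 at 9.22 ± 0.17 and 7.83 ± 0.24, while Lyz2 was at 8.41 ± 0.66 and 8.98 ± 0.38. C1qa lay at the floor of 5.27 on 3 arrays of each group. The part of these markers in the result was not tested.

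Mrpl38 had the largest difference between L-GMP and GMP. It is a large subunit protein without a bacterial counterpart, related to phosphatidylethanolamine-binding proteins. Its levels were 7.64, 7.95, 8.15 and 8.28 in GMP and 6.66 to 7.10, with a median of 6.83, in L-GMP. In HSC they were 7.53, 7.42, 6.92, 7.54 and 7.47. The L-GMP arrays lay below all GMP arrays and below all HSC arrays but replicate 3. The difference from GMP was -1.16 ± 0.18 (SE, adjusted p = 2.69e-05). A dimmer probe set of Mrpl38 that also passed the filter gave -0.28 (adjusted p = 0.0624 over all probe sets), so the size of this difference depends on the probe set.

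Mrpl47, the counterpart of a bacterial protein at the exit of the peptide tunnel, was at 10.02, 10.03, 9.87 and 10.01 in GMP and at 8.78 to 9.35, with a median of 9.15, in L-GMP. HSC arrays stood at 9.44, 9.29, 9.15, 9.19 and 9.40 and MEP arrays at 10.04, 9.82 and 10.39. L-GMP and HSC overlapped, and both lay below all GMP and MEP arrays. The difference between L-GMP and GMP was -0.89 ± 0.12 (SE, adjusted p = 5.52e-06).

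Among small subunit genes, Mrps22, Mrps7 and Mrps2 fell most. Mrps22, a protein without a bacterial counterpart, was at 9.46, 9.46, 9.32 and 9.08 in GMP and at 8.27 to 8.85, with a median of 8.57, in L-GMP, with no overlap. The difference was -0.78 ± 0.14 (SE, adjusted p = 0.000127). Mrps2, the counterpart of a bacterial small subunit protein, was at 9.75, 9.91, 9.81 and 9.72 in GMP and at 8.78 to 9.19, with a median of 9.09, in L-GMP. Its HSC arrays, at 9.47, 9.33, 9.26, 9.42 and 9.43, lay between, above every L-GMP array. Mrps2 differed from GMP by -0.75 ± 0.09 (adjusted p = 1.89e-06) and from HSC by -0.33 ± 0.09 (adjusted p = 0.00282). Mrps7, a counterpart of the bacterial protein at the head of the small subunit, fell by 0.76 log2 units (adjusted p = 4.39e-06) and Mrpl16 by 0.71 (adjusted p = 7.77e-05), both with no overlap.

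Mrpl57, a large subunit protein without a bacterial counterpart, was the 1 gene that rose in L-GMP against GMP. It was at 11.14, 11.32, 11.25 and 11.18 in GMP and at 11.28 to 11.64, with a median of 11.50, in L-GMP, and the groups overlapped. The difference of 0.27 ± 0.09 (SE, adjusted p = 0.0297) did not pass with the replicate number as a block (0.24, adjusted p = 0.0752), nor without GMP replicate 1 (0.24, adjusted p = 0.0828), GMP replicate 3 (0.27, adjusted p = 0.0545) or GMP replicate 4 (0.25, adjusted p = 0.072). It also did not pass without L-GMP replicate 2 (0.26, adjusted p = 0.0507), L-GMP replicate 3 (0.24, adjusted p = 0.0633) or L-GMP replicate 6 (0.24, adjusted p = 0.0575). Of the genes of known role, Mrps12 fell by 0.42 log2 units (adjusted p = 0.000853) and Mrps18b by 0.61 (adjusted p = 0.00113). Mrps18a fell by 0.33 (adjusted p = 0.0256), a call lost without GMP replicate 3 (-0.27, adjusted p = 0.109) or GMP replicate 4 (-0.31, adjusted p = 0.0644). The differences of Mrpl12 (-0.13, adjusted p = 0.373), Mrps30 (-0.26, adjusted p = 0.0858), Mrps18c (-0.12, adjusted p = 0.43) and Mrpl58 (-0.17, adjusted p = 0.234) did not pass.

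**Figure D4:**
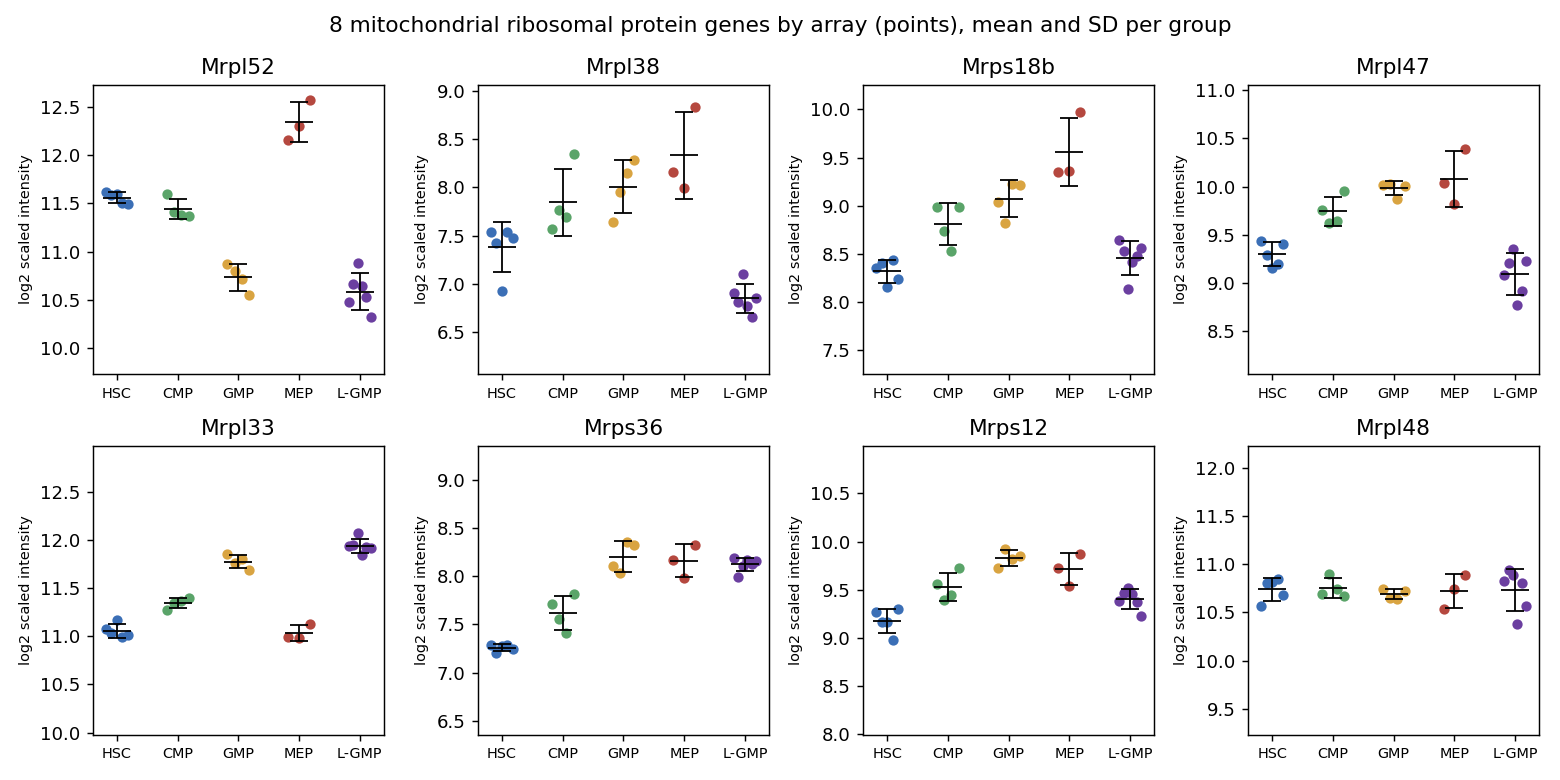
Log2 scaled intensity of 8 of the 74 genes on each sorted array (points), with the mean and SD of each group; the axes differ in position between genes. Mrpl52 is highest in MEP, Mrpl33 is high in GMP and L-GMP, and Mrpl38 and Mrpl47 are low in L-GMP. Mrps36 is lowest in HSC, and the group means of Mrpl48 lie within 0.065 of each other.

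Against HSC, L-GMP had 25 higher and 10 lower genes, 35 of 74 against 47.2% of all genes, 23.4% higher and 23.8% lower. The median difference was 0.08 against 0.00 over all genes, and the share called was that of all genes, so nothing is read from the count. For 20 genes the arrays did not overlap, against 31.6% of all genes. The largest rises in L-GMP were those of Mrpl33, at 0.88 ± 0.06 (SE, adjusted p = 1.48e-10), Mrps36, at 0.86 ± 0.08 (adjusted p = 2.18e-08), and Mrpl57, at 0.78 ± 0.09 (adjusted p = 1.44e-07). Mrps21, Mrpl18 and Mrpl58 followed at 0.71, 0.69 and 0.68. Mrpl52 fell most, by 0.98 log2 units (adjusted p = 2.42e-08), followed by Mrpl9, by 0.65 (adjusted p = 0.000289). Mrpl38, Mrps6, Mrpl39 and Mrps2 fell by 0.53, 0.41, 0.33 and 0.33. With the mean of its probe sets the call was lost for Mrpl38 (-0.27, adjusted p = 0.0555) and for Mrpl39 (-0.23, adjusted p = 0.0602), and for Mrpl38 also with the 3'/5' signal ratio of the arrays as a covariate (-0.35, adjusted p = 0.124). With the deposited values not scaled further, 19 genes rose and 12 fell.

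Against CMP, L-GMP had 25 lower and 7 higher genes, 32 of 74 against 39.9% of all genes, 21.5% lower and 18.4% higher, with a median of -0.14 against -0.01 over all genes and 24 genes without overlap, against 30.6% of all genes. Mrpl38 (-0.996, adjusted p = 9.29e-05), Mrpl52 (-0.86, adjusted p = 6.76e-07) and Mrpl47 (-0.65, adjusted p = 0.000131) fell, and Mrpl33 (0.59, adjusted p = 3.39e-07), Mrps36 (0.50, adjusted p = 0.000112) and Mrpl57 (0.46, adjusted p = 0.00037) rose. Against MEP, 38 genes were lower and 2 higher, 40 of 74 against 45.2% of all genes, 22.9% lower and 22.3% higher, with a median of -0.30 against -0.05 over all genes and 32 genes without overlap, against 36.9% of all genes. Mrpl52 fell by 1.76 on the log2 scale (SE 0.11, adjusted p = 2.97e-11), Mrpl38 by 1.48 (adjusted p = 1.52e-06), Mrps18b by 1.10 (adjusted p = 2.06e-06) and Mrpl47 by 0.99 (adjusted p = 1.71e-06). Mrpl33 and Mrpl44 were the 2 genes that rose, by 0.90 ± 0.07 (adjusted p = 1.49e-09) and 0.50 ± 0.12 (adjusted p = 0.00218). With the deposited values not scaled further, 27 genes fell and 5 rose. The comparisons of L-GMP with GMP, HSC, CMP and MEP share the 6 L-GMP arrays, so their values are set side by side and are not independent of each other.

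Some genes differed little between populations at the brightest probe set that represents them. Mrpl48 had the narrowest range of group means, 0.06, with 10.56, 10.81, 10.81, 10.85 and 10.68 in HSC, 10.75, 10.65, 10.64 and 10.72 in GMP and 10.38 to 10.94 in L-GMP, and all groups overlapped. The limma F test gave an adjusted p of 0.985. Mrps9, Mrps33 and Mrps5 followed with ranges of 0.10, 0.14 and 0.20 and adjusted p-values of 0.918, 0.49 and 0.865. The spread between arrays of Mrps5 was wide, with an SD of 0.37 in GMP and 0.34 in L-GMP. Mrpl50 showed how probe sets can differ: its brighter probe set gave 0.10 for L-GMP against CMP (adjusted p = 0.741 over all probe sets) and a second gave -0.67 (adjusted p = 0.00387). Of the 20 genes with several probe sets past the filter in the sorted experiment, 0 were called in opposite directions by them in any of the 10 pairwise comparisons.

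Other genes of the same pathway, from lists fixed by function, were compared in L-GMP and GMP. Of the other ribosomal proteins that carry unrelated symbols, 4 of 4 tested fell. Gadd45gip1 was at 8.10 ± 0.20 (SD, 6 arrays) in L-GMP and 9.08 ± 0.16 (SD, 4 arrays) in GMP, a difference of -0.99 (adjusted p = 3.33e-05). Ptcd3 differed by -0.60 (adjusted p = 0.000359), Dap3, a GTP-binding protein of the small subunit, by -0.49 (adjusted p = 0.00309), and Chchd1 by -0.33 (adjusted p = 0.0158). Of the translation factors, 5 of 10 fell and 0 rose. Among them, Tufm, the elongation factor that brings transfer RNA to the ribosome, differed by -0.65 (adjusted p = 9.52e-05), Mrrf, the recycling factor, by -0.61 (adjusted p = 0.00582), and Oxa1l, which inserts new chains into the inner membrane, by -0.56 (adjusted p = 0.00237). Slirp, a partner in keeping mitochondrial messages stable, differed by -0.53 (adjusted p = 0.00016). Of the mitochondrial tRNA synthetases 4 of 9 fell, led by Fars2 (-0.87, adjusted p = 0.00057) and Hars2 (-0.64, adjusted p = 0.00871). Of the assembly factors 5 of 17 fell, led by Fastkd2 (-1.02, adjusted p = 1.65e-06), an RNA-binding protein of the large subunit's assembly, and by the GTPase Noa1 (-0.68, adjusted p = 0.00423). Of 8 genes of mitochondrial transcription and replication 3 fell and 1 rose: Tefm, the elongation factor of the mitochondrial RNA polymerase (-0.63, adjusted p = 0.00161), Tfam (-0.30, adjusted p = 0.0416) and Ssbp1 (-0.28, adjusted p = 0.00445) fell, and Mterf2 rose (0.48, adjusted p = 0.03). These shares are read against the 18.3% of all genes that fell in this comparison.

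Of 7 known regulators of these genes that were tested, 3 fell in L-GMP against GMP, where 18.3% of all genes fell. Ppargc1b, a coactivator of mitochondrial genes, was at 7.57 ± 0.28 (SD, 4 arrays) in GMP and at the floor of 5.27 on all 6 L-GMP arrays, so it fell by 2.30 on the log2 scale or more (adjusted p = 1.21e-10). Myc, which drives growth and the genes of ribosomes, was at 8.90 ± 0.10 (SD, 6 arrays) in L-GMP, 9.86 ± 0.15 (SD, 4 arrays) in GMP, 9.69 ± 0.19 (SD, 5 arrays) in HSC, 10.10 ± 0.15 (SD, 4 arrays) in CMP and 10.28 ± 0.13 (SD, 3 arrays) in MEP. It fell in L-GMP against all 4 normal populations, by 0.97 against GMP (adjusted p = 2.12e-07), 0.79 against HSC (adjusted p = 4.36e-07), 1.20 against CMP (adjusted p = 3.35e-09) and 1.38 against MEP (adjusted p = 1.07e-09). In HSC, Myc was lower than in CMP by -0.41 (adjusted p = 0.0111) and than in MEP by -0.59 (adjusted p = 0.000313), and its difference from GMP was -0.18 (adjusted p = 0.186). In MEP it was higher than in GMP by 0.42 (adjusted p = 0.0113), while CMP against GMP gave 0.23 (adjusted p = 0.171) and MEP against CMP 0.18 (adjusted p = 0.362). Pprc1, a relative of Ppargc1b, fell by 0.72 (adjusted p = 3.86e-05). Gabpa, Yy1 and Nrf1, whose motif cores were searched in the promoters, differed by -0.08, -0.05 and -0.00 (adjusted p = 0.556, 0.776 and 1). Gabpb1, the other subunit of GABP, was at 7.58 ± 0.35 (SD, 6 arrays) in L-GMP and 7.27 ± 0.40 (SD, 4 arrays) in GMP, a difference of 0.31 (adjusted p = 0.222). It was the 1 regulator that rose in HSC against GMP, by 0.95 (adjusted p = 0.000492), where 19.4% of all genes rose.

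Set beside the promoter motifs, the 24 genes with the ETS core had a median difference between HSC and GMP of -0.51, with 18 genes lower, and the 41 genes with a promoter but without it had -0.43, with 24 lower. Between L-GMP and GMP the 24 genes had a median of -0.16, with 8 lower, and the other 41 genes -0.31, with 19 lower. The 5 genes with an E box had medians of -0.76 and -0.48 in these comparisons, against -0.45 and -0.24 for the other 60 genes. The 12 genes with a YY1 core had -0.44 and -0.38, against -0.49 and -0.24 for the other 53. The 8 genes with an NRF1 core had -0.49 and -0.24, against -0.45 and -0.26 for the other 57. These values are a description of few genes and were not tested.

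The transduced experiment asks what MLL-AF9 does to GMP, with GFP as the control. In limma 0 of the 74 genes passed, against 0.0276% of all 7235 genes, or 2 genes (0.0138% higher and 0.0138% lower). At an unadjusted p under 0.05, 6 of the 74 genes passed, against 10.2% of all genes. The median difference between MLL-AF9 and GFP was 0.12, against 0.02 over all genes, 61 of the 74 differences were above 0, and for 14 genes the arrays did not overlap, against 17.5% of all genes. The p-values given for MLL-AF9 against GFP are from this fit, which did not pair the samples. Samples with the same replicate number deviated together in this experiment, so the fit was repeated with that number as a block. It then called 1.74% of all genes, 126 in number (0.207% higher and 1.53% lower), and again 0 of the 74. With 3 arrays a group, this says only that no difference was detectable, not that none exists. In simulated data, 0 of 100 changes of 0.5 were recovered in this comparison, and the largest difference of the 74 genes was 0.43.

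Of the genes of known role, Mrpl12 was at 11.57, 11.92 and 11.89 on the GFP arrays and at 12.26, 11.93 and 12.11 on the MLL-AF9 arrays. The MLL-AF9 arrays lay above the GFP arrays by a narrow margin, and the difference was 0.31 ± 0.15 (SE, adjusted p = 0.515). Mrps18a was at 9.54, 9.87 and 9.79 under GFP and at 9.93, 10.05 and 10.07 under MLL-AF9, again without overlap, with a difference of 0.28 ± 0.13 (adjusted p = 0.504). The groups overlapped for Mrps30 (0.24, adjusted p = 0.629), Mrpl58 (0.17, adjusted p = 0.69), Mrps18b (0.13, adjusted p = 0.799), Mrps12 (0.10, adjusted p = 0.837) and Mrps18c (-0.00, adjusted p = 0.996). Mrpl52, the gene of widest range in the sorted experiment, was at 12.16, 11.94 and 11.77 under GFP and at 11.96, 11.81 and 11.60 under MLL-AF9, a difference of -0.16 ± 0.15 (adjusted p = 0.748), and its groups overlapped.

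The higher values under MLL-AF9 came mostly from replicate 1. Within replicate 1, 70 of the 74 genes were higher under MLL-AF9, with a median difference of 0.34, against 54.9% of all genes and a median of 0.04. Within replicate 2, 41 genes were higher, with a median of 0.03 against -0.01 over all genes, and within replicate 3, 47 genes, with a median of 0.05 against -0.01. All 3 pairs ran upward for 27 genes and downward for 2, Mrpl33 and Mrpl52, and the other 45 were mixed. The share of all genes that ran one way in all 3 pairs was not counted, so nothing is read from these counts. The MLL-AF9 replicate 1 array had 68 of the 74 genes above their mean over the experiment, and GFP replicates 1, 2 and 3 had 15, 43 and 13. With the pair of replicate 1 left out the median difference of the 74 genes was 0.02. Among the genes that ran one way in all pairs, Mrpl1 was the gene whose weakest pair was strongest, with 0.40, 0.34 and 0.29 in the 3 pairs, and Mrpl47 followed with 0.67, 0.31 and 0.24. Both were chosen after their values were seen. Macrophage markers (6 of 6 genes) summed to 16567 to 25473 under GFP and to 5940 to 12091 under MLL-AF9, and their part in these differences was not tested.

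**Figure D5:**
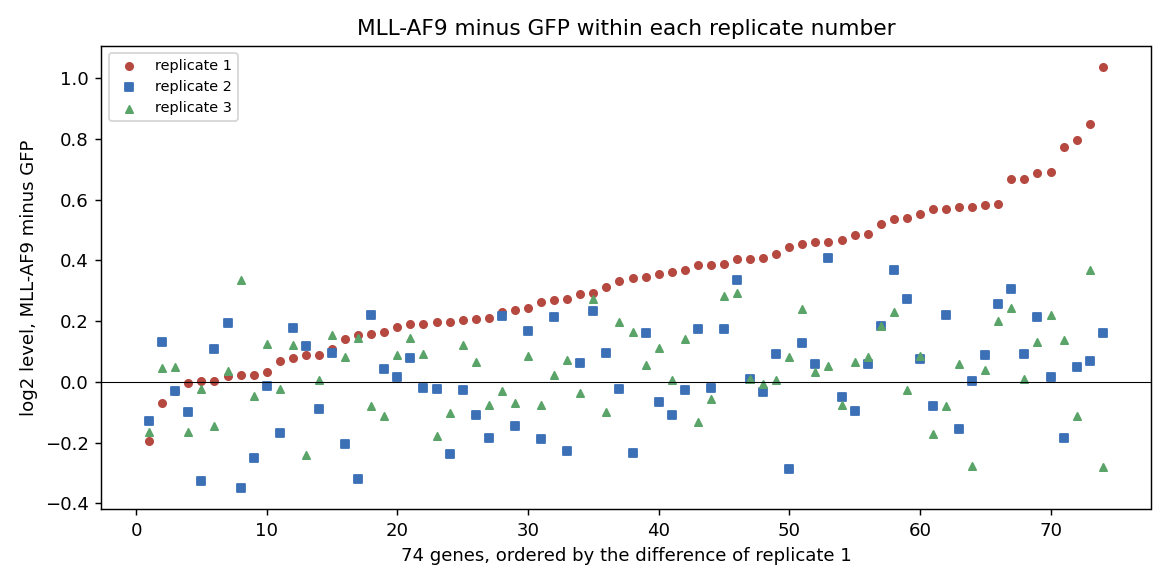
Log2 difference between MLL-AF9 and GFP arrays of the same replicate number for each of the 74 genes, ordered by the difference of replicate 1 (red circles), with replicate 2 as blue squares and replicate 3 as green triangles. In replicate 1, 70 of 74 points lie above 0, while in replicates 2 and 3 the points scatter on both sides of 0, with 41 and 47 above it.

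The other genes of the pathway gave 0 calls in MLL-AF9 against GFP in limma, in each of the lists of other ribosomal proteins, translation factors, tRNA synthetases, assembly factors, transcription and regulators. At an unadjusted p under 0.05, 0 of 4, 2 of 11, 0 of 8, 3 of 17, 1 of 8 and 1 of 8 genes passed in these lists, against 10.2% of all genes. Myc was at 11.51 ± 0.21 (SD, 3 arrays) under MLL-AF9 and 10.78 ± 0.65 (SD, 3 arrays) under GFP, a difference of 0.74 ± 0.32 (SE, adjusted p = 0.496). Gadd45gip1 was at 11.18 ± 0.40 and 10.71 ± 0.07 (SD, 3 arrays each), Ptcd3 at 10.93 ± 0.13 and 10.57 ± 0.42, Dap3 at 11.33 ± 0.10 and 11.33 ± 0.17, and Chchd1 at 11.98 ± 0.14 and 11.93 ± 0.0030, in MLL-AF9 and GFP.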

How the data were processed

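The deposited table holds 1 intensity per probe set and array on a linear scale, made by the authors with MAS5, per the submitters' processing notes; its version and further settings are not given in the sources used here. Between 187 and 413 deposited intensities per array were at or below 0. Each array was scaled to its experiment by a mean trimmed by 2% at each end (factors 0.923 to 1.12), raised to a floor at the experiment's 25th percentile (78.0 transduced, 38.7 sorted) and taken to log2. Probe sets above the experiment's median on at least 3 arrays were kept, and the brightest one per gene was tested in limma 3.58.1 (R 4.3.3), in 1 fit over all groups of an experiment, with Benjamini-Hochberg adjusted p under 0.05 over 7235 transduced and 8422 sorted genes. The procedure was tested on simulated data. Because of the scaling, total RNA per cell cannot be compared.

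Genes were named by rule: all called genes of a comparison where there were at most 8, otherwise the 6 largest in each direction, the widest and narrowest ranges of group means, and 7 genes of known role. Not every gene so named is discussed. The genes, lists and rules were chosen with earlier results of these data known. Alternatives were quantile normalization, no further scaling, other floors, no filter, the mean of probe sets, a block on the replicate number, the 3'/5' ratio as a covariate, limma's trend, and leaving out arrays. Same-numbered transduced samples deviated together (r 0.379 to 0.596 in 3 of 3 pairs). In the sorted experiment r ran from -0.493 to 0.528 and was over 0.1 in 18 of 37 pairs. The main fits of both experiments took no account of the replicate number. The block on it was an alternative only.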

Additional observations from a re-analysis of the deposited data

Results flagged for a closer look

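In groups of 4 to 6 arrays, a single array stood apart from its group in 8 of 156 cases tested, which cover 38 genes and the median of the 74 genes in each group; chance alone gives about 1 in 20. Among the HSC arrays, Mrpl38 was lowest on replicate 3 at 6.92, with the nearest array at 7.42, Mrpl39 was lowest on replicate 4 at 10.17, with the nearest at 10.50, and Mrps6 was highest on replicate 3 at 8.44, with the nearest at 8.31. Among the CMP arrays, replicate 4 was highest for Mrpl50 at 7.84, against 7.46 on the nearest, and for Mrps2 at 9.85, against 9.65. Mrpl47 was lowest on GMP replicate 3 at 9.87, against 10.01 on the nearest. Among the L-GMP arrays, Mrps18c was lowest on replicate 4 at 9.999, against 10.47, and Mrps33 was highest on replicate 6 at 10.37, against 10.18.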

How the results depend on the processing

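With 1 array left out, the number of the 74 genes called ran from 59 to 63 for any difference among the 5 populations, 48 to 52 for HSC against GMP, 30 to 49 for HSC against MEP, 9 to 26 for HSC against CMP, 6 to 15 for CMP against GMP, 5 to 10 for MEP against GMP, 5 to 17 for MEP against CMP, 29 to 36 for L-GMP against GMP, 29 to 35 against HSC, 24 to 33 against CMP, 31 to 43 against MEP, and was 0 for MLL-AF9 against GFP each time. Without further scaling, 9 genes were called for HSC against CMP, 29 for HSC against MEP and 7 for MEP against CMP. The shares of all genes called without further scaling are not given here. The counts under that setting are therefore not read as changes particular to the 74 genes. Without the replicate 1 arrays of HSC, CMP and GMP, a choice made after seeing the data, 12 were called for HSC against CMP and 7 for CMP against GMP. With a replicate block the counts were 59 among the 5 populations, 51, 42 and 19 for HSC against GMP, MEP and CMP, 11 for CMP against GMP, 9 and 10 for MEP against GMP and CMP, 29, 34, 26 and 34 for L-GMP against GMP, HSC, CMP and MEP, and 0 for MLL-AF9 against GFP. Signs turned in MLL-AF9 against GFP for genes near 0 that were not called: Mrps18c gave 0.00167 under quantile normalization, 0.00965 and 0.00888 in the block with pair 1 or pair 2 left out, and ran from -0.0349 to 0.0128 with 1 array left out; Mrps12 gave -0.000609 in the block without pair 1, and Mrps18b ran from -0.00345 to 0.235 with 1 array left out. Leaving out pairs was also chosen after seeing the data. Among calls of single genes, 32 were lost under at least 1 of the other alternatives, 36 with at least 1 array left out, and 40 under either; the cause was not tested.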
